A study of Macaca mulatta with 16 samples.

Results

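The genes that start blood clotting, hold it back and dissolve the clot were followed in bulk RNA of the fetal rhesus macaque lung. They are F3, VWF, TFPI, THBD, PROCR, PLAU, PLAT, PLAUR and SERPINB2. These 9 genes were chosen by their symbols from the 22515 genes of the counts table. All 9 had a row and all 9 were among the 19199 genes that passed the filter on low counts. The tissue was frozen left lung, and each of the 16 fetuses gave 1 library. Preterm controls (n = 4) had no intervention and were delivered at 131 to 135 days of gestation. LPS 16h fetuses (n = 4) received 1 mg of lipopolysaccharide (LPS), a bacterial cell wall component, by injection into the amniotic fluid and were delivered 16 hours later at 130 or 131 days. LPS 5d fetuses (n = 3) received the same LPS and were delivered after 5 days at 131 to 134 days. LPS + Beta-Ac fetuses (n = 3) received that LPS, their dams also received betamethasone-acetate (Beta-Ac), a glucocorticoid, at 0.125 mg/kg into the muscle, and delivery was after 5 days at 131 or 132 days. Term controls (n = 2) had no intervention and were delivered at 156 and 157 days. The controls received no sham injection, so the injection itself and the LPS cannot be told apart. No group given Beta-Ac alone was analysed here.

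Tissue factor, encoded by F3, is the membrane protein that starts clotting when it binds factor VII. TFPI blocks this complex, while thrombomodulin (THBD) turns thrombin into an activator of protein C, which once active degrades clotting cofactors. The endothelial protein C receptor (PROCR) presents protein C to the complex of thrombin and thrombomodulin. The activators urokinase (PLAU) and tissue-type activator (PLAT) cut plasminogen into plasmin, the enzyme that dissolves fibrin. PLAUR holds urokinase on the cell surface, and the serpin SERPINB2 blocks both activators. In inflamed lung, clotting and fibrinolysis genes are known to respond in endothelium, epithelium and myeloid cells.

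Library totals ran from 20169363 to 28348816 counts in the preterm, LPS 5d, LPS + Beta-Ac and term groups and from 30596371 to 48052891 in the LPS 16h group. The deeper sequencing therefore coincided with the 16 hour exposure, and the labels give no batch. Levels are given as CPM, the counts relative to a library total that TMM scaling makes comparable between libraries, for single animals or as mean ± SD. A gene was called higher or lower when its limma p, adjusted over all genes by Benjamini and Hochberg, was below 0.05 and its change was at least 2-fold. The fit covered all 16 animals. CPM is not corrected for gene length, so it was compared between animals and not between genes. In bulk tissue, fewer cells of a type and less RNA per cell cannot be told apart.

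At 16 hours after LPS, 5 of the 9 genes were called higher than in preterm controls and 0 were called lower. They were SERPINB2, PLAUR, F3, PROCR and PLAU, while THBD, VWF, TFPI and PLAT were not called. Over all genes tested, 14.4% were called in this comparison, 8.25% higher and 6.11% lower. The median log2 fold change was 1.50 over the 9 genes and -0.09 over all genes. The 9 genes were chosen with earlier results of these data known, so their contrast with all genes is a description and not a test. With every library thinned to the smallest total, 5 genes were again called.

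**Figure D1:**
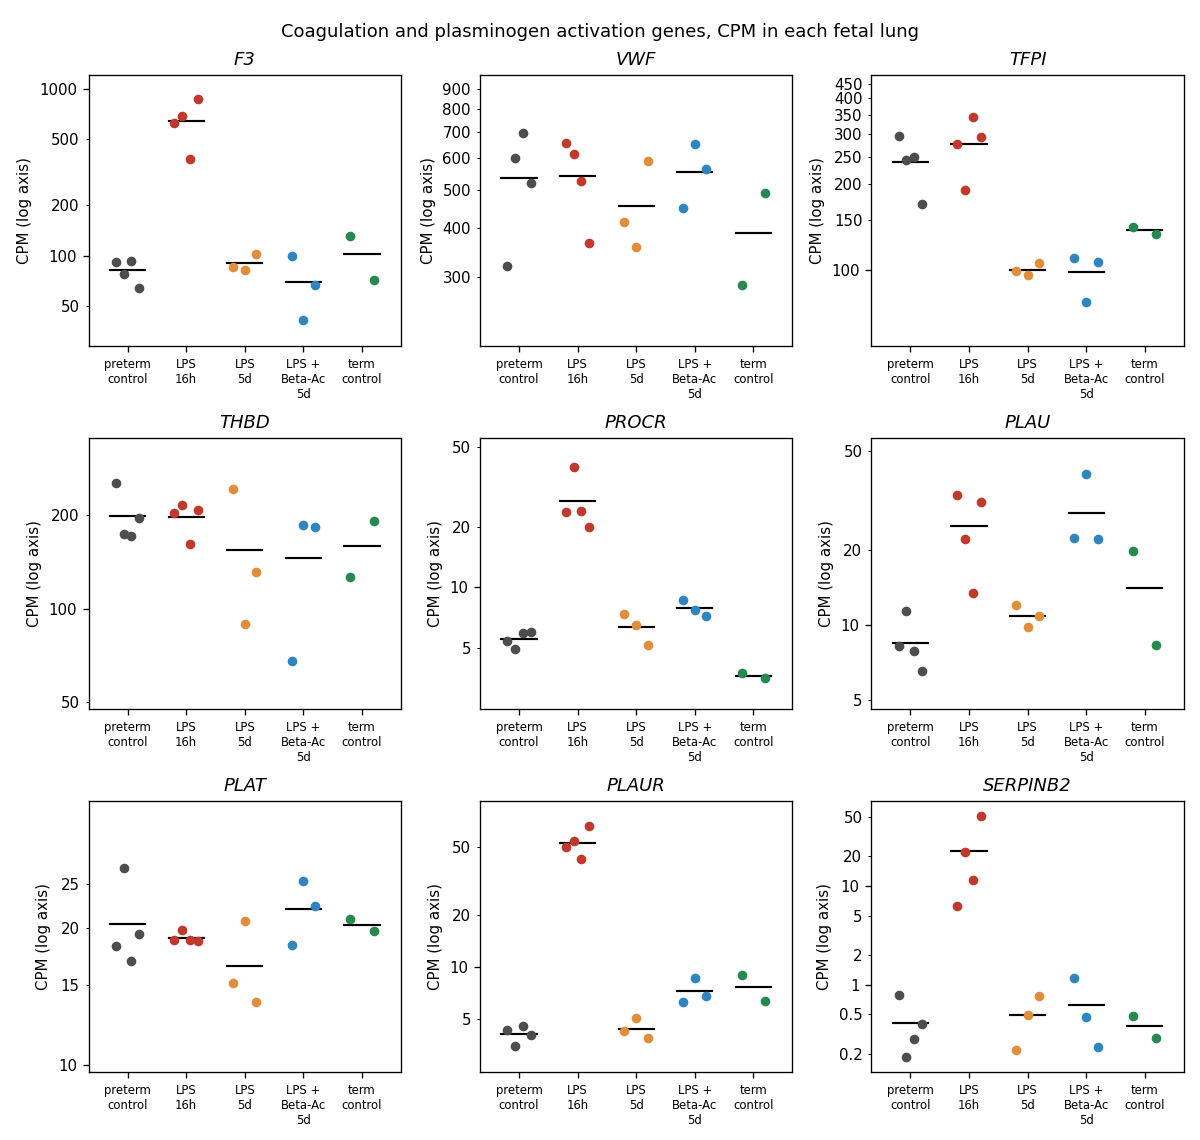
CPM on a log axis of each of the 9 genes in each fetal lung, with 1 point per animal and a line at the group mean. F3, PROCR, PLAUR and SERPINB2 stood apart in the 4 LPS 16h lungs, TFPI was low in the 6 lungs at 5 days after LPS, and PLAU was high in both the LPS 16h and the LPS + Beta-Ac lungs. TFPI in the term lungs also lay below every preterm control. PLAU in term animal 200, at 19.9 CPM, lay above the lowest LPS 16h lung, at 13.5 CPM.

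F3, the initiator of clotting, was at 92.1, 77.2, 93.1 and 63.9 CPM in the preterm controls. In the LPS 16h lungs it was at 626, 686, 380 and 866 CPM. The lowest exposed lung, animal 035, lay 4.08-fold above the highest control. The log2 fold change was 2.93 (SE 0.28), a 7.59-fold difference with a 95% interval of 4.98 to 11.6 and a limma adjusted p of 1.8e-06. At 5 days F3 was at 85.1, 82.5 and 103 CPM after LPS and at 100.1, 41.2 and 66.4 CPM after LPS + Beta-Ac. Both groups overlapped the preterm controls, and neither was called. The term controls held 132 CPM, above every preterm control, and 71.9 CPM, within their range.

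VWF encodes von Willebrand factor, the endothelial and platelet protein that carries factor VIII and tethers platelets. It was at 320, 602, 697 and 519 CPM in preterm controls and at 657, 616, 525 and 367 CPM in LPS 16h lungs. The groups overlapped almost completely, with a log2 difference of 0.04 and a 95% interval of -0.52 to 0.60. VWF was not called in any of the 6 comparisons, and its largest difference, term against preterm, was -0.45 on the log2 scale (limma adjusted p = 0.493). Preterm control 092 held the lowest VWF of its group, at 320 CPM.

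TFPI, the inhibitor of the tissue factor complex, was lower at 5 days and was not called at 16 hours. It was at 295, 243, 250 and 171 CPM in preterm controls and at 277, 191, 346 and 293 CPM in LPS 16h lungs. These groups overlapped, and the log2 difference of 0.20 was not called (95% interval -0.19 to 0.59). At 5 days after LPS it was at 99.8, 96.4 and 106 CPM, and after LPS + Beta-Ac at 111, 77.7 and 107 CPM. Every lung of both 5 day groups lay below every preterm control. The log2 fold change was -1.23 (SE 0.20, limma adjusted p = 0.00112) for LPS 5d and -1.27 (SE 0.20, limma adjusted p = 0.000547) for LPS + Beta-Ac. These 2 comparisons share the same 4 preterm controls. The term controls, at 142 and 134 CPM, also lay below every preterm control, but the log2 difference of -0.77 was not called (limma adjusted p = 0.0711).

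The summed CPM of 12 endothelial markers was 3023 to 3569 in preterm controls, 2296 to 2858 in LPS 5d and 2462 to 2892 in LPS + Beta-Ac lungs. Of the 12 markers, 0 were called in either comparison, beside 4.83% and 6.49% of all genes. All 12 were nevertheless lower than in preterm controls in both comparisons. Their median log2 differences were -0.34 after LPS and -0.33 after LPS + Beta-Ac, beside -0.0016 and -0.010 over all genes. In LPS 16h lungs the sum was 2482 to 3096. KDR and EMCN were the 2 of 12 markers called lower there, beside 6.11% of all genes. The part of endothelial cells in the TFPI values was not tested. Neither a marker sum nor a ratio to a single gene separates cell number from RNA per cell. TFPI was also set against PECAM1, an endothelial adhesion molecule, within each library. The log2 ratio of TFPI to PECAM1 ran from -1.82 to -1.26 in preterm controls, from -2.51 to -2.06 in LPS 5d and from -2.68 to -2.21 in LPS + Beta-Ac lungs. Relative to PECAM1, TFPI was thus lower in every lung at 5 days than in any preterm control.

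THBD was at 252, 174, 171 and 196 CPM in preterm controls and at 202, 215, 162 and 207 CPM in LPS 16h lungs. The means were 198 ± 37.7 and 197 ± 23.9 CPM, with a log2 difference of 0.00 and a 95% interval of -0.71 to 0.70. At 5 days the animals of a group differed widely. LPS 5d lungs held 243, 89.3 and 131 CPM, and LPS + Beta-Ac lungs held 67.9, 186 and 182 CPM. Animals 240 and 242 after LPS and animal 248 after LPS + Beta-Ac lay below every preterm control, while animal 239 lay within the controls' range. THBD was called in none of the 6 comparisons, for which the smallest limma adjusted p was 0.309.

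PROCR, the receptor that presents protein C to the thrombin-thrombomodulin complex, was at 5.40, 4.96, 5.93 and 6.01 CPM in preterm controls and at 23.7, 39.4, 23.9 and 19.9 CPM in LPS 16h lungs. The groups did not overlap, and the log2 fold change was 2.20 (SE 0.19, limma adjusted p = 3.22e-07), a 4.60-fold difference. The log2 ratio of PROCR to PECAM1 ran from -7.21 to -6.65 in preterm controls and from -4.84 to -3.89 in LPS 16h lungs. PROCR was thus also higher relative to this endothelial gene in every exposed lung. At 5 days it was at 7.41, 6.53 and 5.18 CPM after LPS, overlapping the controls. After LPS + Beta-Ac it was at 8.63, 7.72 and 7.25 CPM, above every preterm control, with a log2 difference of 0.49 that was not called (limma adjusted p = 0.114). In term controls it was at 3.75 and 3.56 CPM, below every preterm control, with a log2 difference of -0.60 that was not called (limma adjusted p = 0.169).

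**Figure D2:**
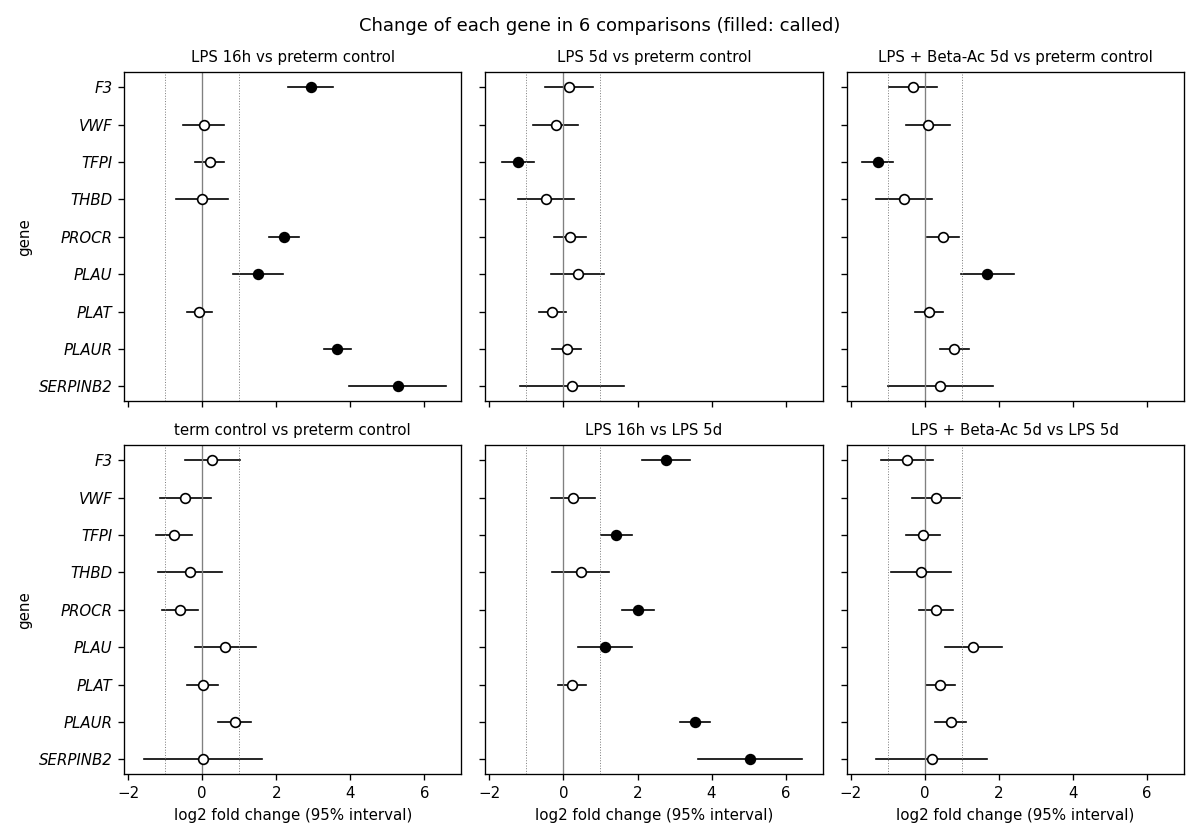
Log2 fold change of each gene with its 95% interval in the 6 comparisons, with filled points for called genes and dotted lines at 2-fold. At 16 hours 5 points were called, all to the right, and TFPI was the called gene to the left in both comparisons of 5 day lungs with preterm controls.

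PLAU, which encodes urokinase, was at 8.23, 11.3, 7.84 and 6.56 CPM in preterm controls. At 16 hours after LPS it was at 33.3, 22.1, 13.5 and 31.3 CPM, above every control. The log2 fold change was 1.50 (SE 0.31, limma adjusted p = 0.00166). At 5 days after LPS alone it was at 12.02, 9.83 and 10.8 CPM, overlapping the controls, and was not called (log2 difference 0.38). After LPS + Beta-Ac it was at 22.3, 40.4 and 22.1 CPM. Each of these lungs lay above every preterm control, with a log2 fold change of 1.70 (SE 0.34, limma adjusted p = 0.00317). The term controls were apart from each other, at 19.9 CPM in animal 200 and 8.35 CPM in animal 201.

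PLAT, the other plasminogen activator, was at 18.2, 27.1, 16.9 and 19.4 CPM in preterm controls. In LPS 16h lungs it was at 18.8, 19.8, 18.8 and 18.7 CPM, inside the controls' range. The log2 difference was -0.08 with a 95% interval of -0.42 to 0.27. At 5 days it was at 15.1, 20.7 and 13.7 CPM after LPS and at 18.4, 25.4 and 22.3 CPM after LPS + Beta-Ac. PLAT was called in none of the 6 comparisons.

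PLAUR, the urokinase receptor, was at 4.35, 3.52, 4.58 and 4.08 CPM in preterm controls and at 49.6, 53.9, 42.6 and 65.7 CPM in LPS 16h lungs. The lowest exposed lung was 9.31-fold above the highest control. The log2 fold change was 3.65 (SE 0.17), a 12.5-fold difference with a 95% interval of 9.72 to 16.1 and a limma adjusted p of 6.66e-10. By p this gene ranked 34 of the 19199 genes tested. At 5 days after LPS it was at 4.29, 5.07 and 3.90 CPM, overlapping the controls. After LPS + Beta-Ac it was at 6.29, 8.70 and 6.86 CPM and in term controls at 9.01 and 6.41 CPM, above every preterm control in both. These log2 differences of 0.80 (limma adjusted p = 0.00746) and 0.87 (limma adjusted p = 0.0332) passed the limit on p but were under 2-fold, so neither was called.

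SERPINB2, plasminogen activator inhibitor type 2, is made by monocytes, macrophages and epithelial cells under inflammation. It was near the lower end of detection in preterm controls, with 18, 4, 8 and 11 counts, or 0.784, 0.185, 0.284 and 0.401 CPM. In LPS 16h lungs it had 175, 828, 497 and 1774 counts, or 6.21, 22.02, 11.5 and 51.6 CPM. The exposed lungs differed by 8.3-fold among themselves, from animal 026 to animal 038, yet none overlapped a control. The log2 fold change was 5.28 (SE 0.61, limma adjusted p = 9.05e-06), with a 95% interval of 3.98 to 6.59. At 5 days it was between 0.218 and 0.761 CPM after LPS and between 0.231 and 1.17 CPM after LPS + Beta-Ac. Both groups overlapped the controls, and neither was called.

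Most listed markers of neutrophils, monocytes and macrophages were also higher at 16 hours than in preterm controls. Of 12 listed neutrophil and monocyte markers, 10 had a row, and 9 of the 10 were called higher, beside 8.25% of all genes. Their summed CPM was 212 to 314 in preterm controls and 2595 to 3565 in LPS 16h lungs. Among the defining genes, S100A8 was at 2.52 ± 1.20 CPM in controls and 504 ± 113 CPM at 16 hours, while CXCR2 was at 14.3 ± 6.48 and 13.8 ± 3.84 CPM. The summed CPM of platelet and megakaryocyte markers was 27.9 to 42.8 in controls and 55.4 to 105 at 16 hours. Of these, ITGB3 and TREML1 were the 2 of 8 tested markers called, as higher, beside 8.25% of all genes. PF4, a platelet granule gene, was at 6.16 ± 1.97 and 5.52 ± 0.49 CPM. Macrophage markers were also higher at 16 hours, with 7 of 12 called higher, beside 8.25% of all genes, and 11 of 12 positive. Their median log2 fold change was 1.17, and their summed CPM was 498 to 788, overlapping the 433 to 521 of controls. In LPS 5d lungs, where PLAUR, PLAU, F3 and SERPINB2 were not called, the macrophage sum was 786 to 849. The part of these cells in the values of PLAUR, PLAU, F3 and SERPINB2 was not tested.

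**Figure D3:**
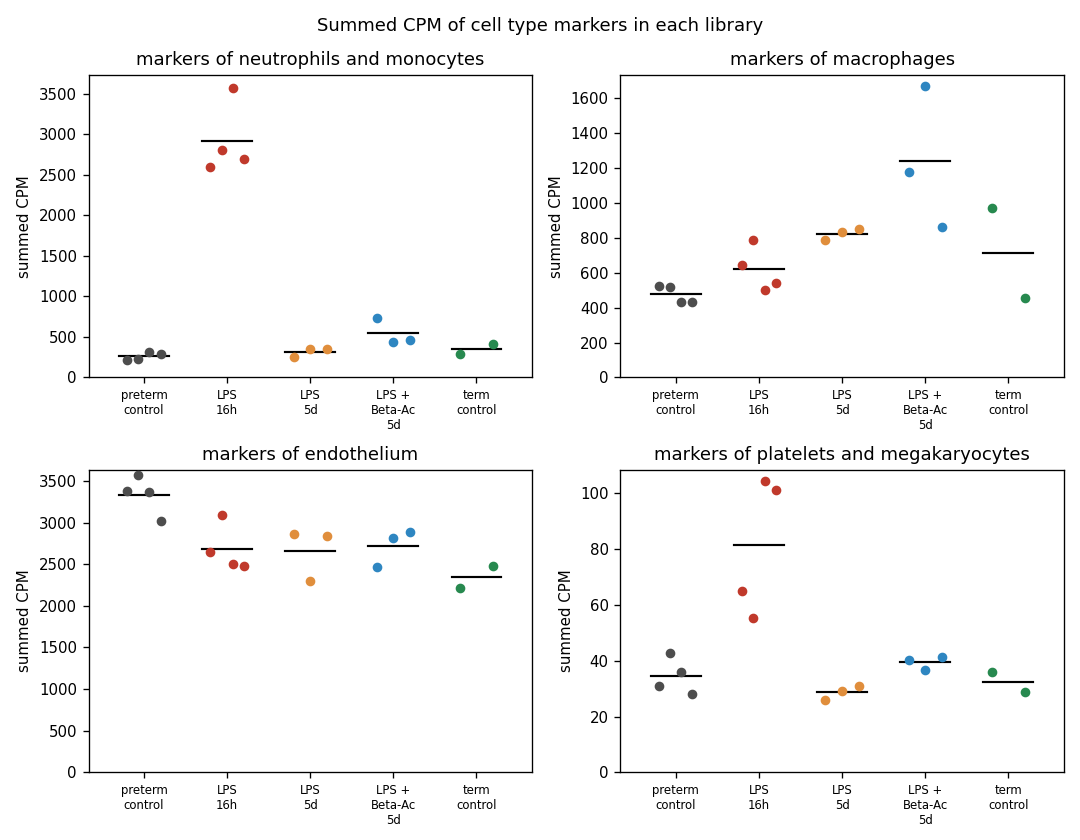
Summed CPM of the markers of 4 cell types in each library, with 1 point per animal, a line at the group mean and axes from 0. Neutrophil and monocyte markers lay between 2595 and 3565 CPM in LPS 16h lungs and at most at 736 CPM elsewhere, and macrophage markers were highest in 1 LPS + Beta-Ac lung at 1670 CPM.

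The direct comparison of LPS 16h with LPS 5d lungs asked which genes differed in level between 16 hours and 5 days after a single exposure. Of the 9 genes, 6 were called higher at 16 hours and 0 lower, beside 14.6% of all genes called, 7.93% higher and 6.66% lower. These were SERPINB2 (log2 5.04), PLAUR (3.55), F3 (2.77), PROCR (2.02), TFPI (1.43) and PLAU (1.12). TFPI entered this group through its low level at 5 days, since at 16 hours it overlapped the preterm controls. For PLAU the limma adjusted p was 0.0187, and it rested on single libraries. Without LPS 16h animal 026, LPS 16h animal 038 or LPS 5d animal 240 it was 0.0517, 0.0537 and 0.0636, and over all alternatives it ran from 0.00377 to 0.0636. SERPINB2, PLAUR, F3, PROCR and TFPI were called in every alternative.

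Against preterm controls, 1 of the 9 genes was called at 5 days after LPS (TFPI, lower), beside 4.83% of all genes. After LPS + Beta-Ac 2 were called (PLAU higher, TFPI lower), beside 6.49% of all genes. Between term and preterm controls 0 were called, beside 2.07% of all genes, with 3626 of all genes at an unadjusted p below 0.05. At an unadjusted p below 0.05 this comparison held PLAUR, TFPI and PROCR among the 9. With limma-voom in place of the log2 CPM fit, 0 were called as well.

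The comparison of LPS + Beta-Ac with LPS alone asked what the glucocorticoid added at 5 days. None of the 9 genes was called by limma, beside 0.0885% of all genes, with 924 genes at an unadjusted p below 0.05 and again 0 of the 9 by limma-voom. PLAU, PLAUR and PLAT were at an unadjusted p below 0.05. PLAU was at 22.1 to 40.4 CPM with Beta-Ac and at 9.83 to 12.02 CPM without, with a log2 difference of 1.32 (95% interval 0.54 to 2.09, limma adjusted p = 0.304). PLAUR was at 6.29 to 8.70 and 3.90 to 5.07 CPM, with a log2 difference of 0.71 (95% interval 0.29 to 1.13, limma adjusted p = 0.305). In both genes the groups did not overlap, but the share of all genes without overlap was not counted, so this adds no support. That PLAU was called against preterm controls with Beta-Ac and not without it does not show a difference between those groups, and the test of that difference missed the threshold.

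Markers of macrophages and of neutrophils and monocytes were higher in the LPS + Beta-Ac lungs too. The summed CPM of the macrophage list was 433 to 521 in preterm controls and 786 to 849 in LPS 5d lungs. It was 1178, 1670 and 859 in LPS + Beta-Ac animals 248, 249 and 255, in which PLAU was at 22.3, 40.4 and 22.1 CPM. The sum of the neutrophil and monocyte list was 736, 437 and 458 CPM in the same 3 animals and 253 to 346 CPM in LPS 5d lungs. Animal 249, with the most PLAU, had the highest macrophage sum and the lowest neutrophil and monocyte sum of its group. In LPS 5d animals 239, 240 and 242 the macrophage sums were 786, 835 and 849, with PLAU at 12.02, 9.83 and 10.8 CPM. In LPS 16h animals 026, 029, 035 and 038 they were 646, 788, 498 and 541, with PLAU at 33.3, 22.1, 13.5 and 31.3 CPM. The order of the animals by macrophage sum differed from their order by PLAU in the LPS 5d and LPS 16h groups. It was the same in the LPS + Beta-Ac and term groups. With so few animals per group, these orders carry no test. Of the 12 macrophage markers, 9 were called higher after LPS + Beta-Ac and 5 after LPS 5d, each against preterm controls. Over all genes, 6.49% and 4.83% were called in either direction in these comparisons. Of the 10 neutrophil and monocyte markers, 8 and 4 were called higher. Between LPS + Beta-Ac and LPS alone 0 of 12 and 1 of 10 were called, the latter being LILRA5, beside 0.0885% of all genes. MARCO, a receptor of alveolar macrophages, had 0 counts in all 4 preterm controls and a mean of 16.5 ± 15.2 CPM after LPS + Beta-Ac. It was also detected in the LPS 16h, LPS 5d and term groups, so its detection was not particular to LPS + Beta-Ac. In the term controls the macrophage sums were 967 in animal 200 and 455 in animal 201, with PLAU at 19.9 and 8.35 CPM. The part of these cells in the PLAU values was not tested.

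Ratios between paired genes of the same library do not depend on the scaling between libraries. Their absolute size depends on gene length, so only their differences between lungs were read. The log2 ratio of F3 to TFPI ran from -1.68 to -1.42 in preterm controls and from 0.14 to 1.85 in LPS 16h lungs, where F3 was high. In LPS 5d lungs it ran from -0.23 to -0.04 and in LPS + Beta-Ac lungs from -0.92 to -0.15, where TFPI was low. In term controls it was -0.11 and -0.90. The ratio of the initiator to its inhibitor was thus higher in each of the 12 other lungs than in any preterm control.

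The log2 ratio of PLAUR to PLAU, receptor to ligand, was -1.69 to -0.68 in preterm controls, 0.58 to 1.66 in LPS 16h lungs and -2.22 to -1.69 in LPS + Beta-Ac lungs. In LPS 5d lungs it was -1.49 to -0.96, and in term controls it was -1.15 and -0.38. The ratio thus lay above all preterm controls at 16 hours and in 1 term control, within their range at 5 days after LPS, and at or below the lowest after LPS + Beta-Ac.

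**Figure D4:**
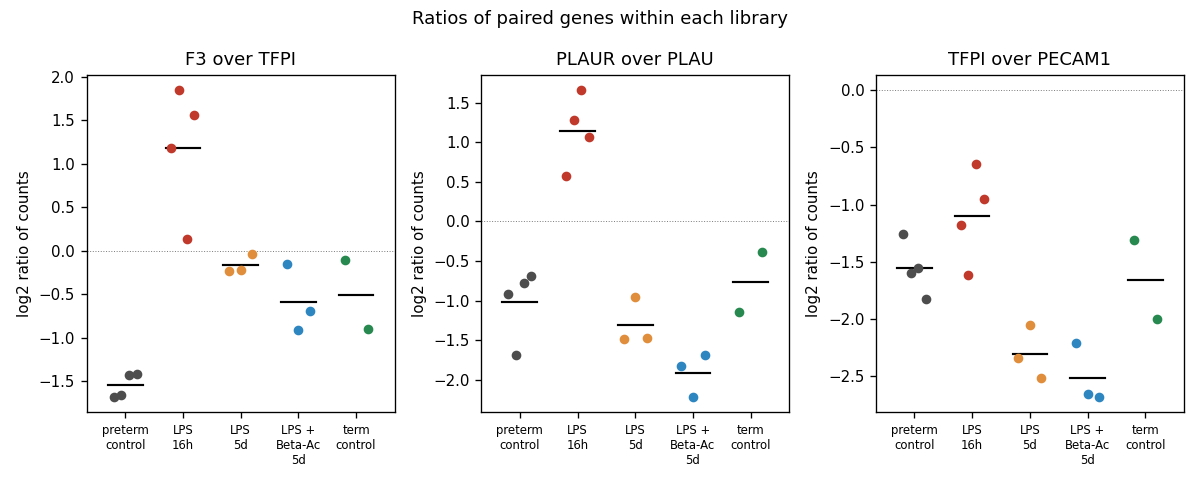
Log2 ratio of the counts of 3 gene pairs within each library, with 1 point per animal and a line at the group mean. F3 over TFPI was lowest in the 4 preterm controls, PLAUR over PLAU was highest in the LPS 16h lungs, and TFPI over PECAM1 was at or below -2.06 in every lung of both LPS groups at 5 days and at or above -1.82 in the preterm controls.

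Over the 16 animals the log2 CPM of F3 and SERPINB2 had a Pearson correlation of 0.936, PLAUR and SERPINB2 of 0.929 and F3 and PLAUR of 0.918. With the group means removed these were 0.526, 0.381 and 0.258. PLAUR and PLAU kept nearly the same value, 0.630 over all animals and 0.573 within groups. In other pairs the within-group value was negative, as for PROCR and TFPI, at 0.427 and then -0.563, and for SERPINB2 and VWF, at -0.005 and then -0.565. The points share their libraries and their groups, so these values describe the 16 lungs and carry no test.

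By the same measure, the genes most like F3 were MYC (0.972), EMC2 (0.968) and MCL1 (0.967). For PLAUR they were LDHA (0.989), IL1RN (0.980) and HSD17B7 (0.979), and for SERPINB2 they were DYRK3 (0.974), PSMA6 (0.973) and SEC23B (0.973). PROCR was nearest to DDOST (0.973), GMDS (0.973) and RALGDS (0.972), and TFPI to RFK (0.977), YWHAZ (0.974) and DIPK2A (0.972). PLAU was nearest to LPXN (0.927), LILRB4 (0.926) and P2RX4 (0.911), of which LILRB4 is a receptor of myeloid cells. VWF was nearest to ADH4 (0.797), MMRN2 (0.763) and TEK (0.676), the last being the angiopoietin receptor of endothelium. For THBD the nearest were TDRD10 (0.799), MRPL35 (0.773) and SCN3B (0.738), and for PLAT CALML6 (0.728), IMPDH (0.720) and NLRP4 (0.706).

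A list of 49 other genes of clotting and fibrinolysis was read beside the 9. Of these, 46 had a row and 40 were tested. At 16 hours 7 were called higher (17.5%) and 7 lower (17.5%) than in preterm controls, beside 8.25% and 6.11% of all genes. The median log2 fold change of the 40 was -0.27, beside -0.09 over all genes. After LPS at 5 days 1 was called, as lower (2.5%, beside 4.83% of all genes), and after LPS + Beta-Ac 1 was called higher and 1 lower (5% together, beside 6.49%). Between term and preterm controls 0 were called by limma, beside 2.07% of all genes, and between LPS + Beta-Ac and LPS alone 0, beside 0.0885%. Between 16 hours and 5 days of LPS 7 were called higher (17.5%) and 5 lower (12.5%), beside 7.93% and 6.66%. The counts by role that follow are small, and each is to be read against 8.25% higher and 6.11% lower over all genes at 16 hours.

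Among inhibitors of fibrinolysis, 1 of 4 tested genes was called higher at 16 hours. SERPINF2, the antiplasmin, was at 0.970 ± 0.545 CPM in controls and 5.61 ± 2.86 CPM at 16 hours (log2 2.46, limma adjusted p = 0.0145). SERPINE2, a serpin of thrombin and urokinase, was called lower after LPS + Beta-Ac, at 36.9 ± 9.12 CPM against 95.3 ± 26.4 CPM (log2 -1.35, limma adjusted p = 0.00314).

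Among plasminogen and its receptors, 1 of 7 was called higher and 1 lower at 16 hours. ENO1, a glycolytic enzyme that also binds plasminogen at the cell surface, was at 266 ± 10.02 CPM in controls and 886 ± 42.1 CPM at 16 hours (log2 1.74, limma adjusted p = 1.3e-08). PLG, plasminogen itself, is made mainly by the liver and had 22 to 64 counts in controls and 8 to 55 at 16 hours. Its groups overlapped, and the call (log2 -1.20, limma adjusted p = 0.0265) was lost in 8 of the 16 alternatives, where the largest limma adjusted p was 0.0955.

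Among the clotting factors, 2 of 14 tested genes were called higher (14.3%) and 3 lower (21.4%) at 16 hours, beside 8.25% and 6.11% of all genes. F13A1, the fibrin cross-linking factor made by macrophages and megakaryocytes, was at 8.30 ± 2.65 CPM in controls and 53.0 ± 24.0 CPM at 16 hours (log2 2.60, limma adjusted p = 0.000167). After LPS + Beta-Ac it was at 26.2 ± 14.1 CPM, which was also called higher (log2 1.58, limma adjusted p = 0.0221). That call was lost without preterm control 101 (limma adjusted p = 0.0632) and without LPS + Beta-Ac animal 248 (0.112). TFPI2, a homologue of TFPI, was at 2.66 ± 0.906 and 5.74 ± 2.36 CPM (log2 1.07), and fell under 2-fold without LPS 16h animal 038 or preterm controls 101 or 113, to log2 0.84, 0.94 and 0.99.

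F7, the partner of tissue factor, was called lower at 16 hours, at 2.97 ± 2.02 CPM in controls and 0.909 ± 0.654 CPM in exposed lungs (log2 -1.65, limma adjusted p = 0.0146). Its groups overlapped, and without LPS 16h animal 035 the limma adjusted p was 0.0525. F8, the endothelial cofactor carried by von Willebrand factor, fell from 7.87 ± 1.19 to 3.83 ± 1.07 CPM with no overlap (log2 -1.05, limma adjusted p = 0.001). Without LPS 16h animals 029 or 035 or preterm control 113 its change was under 2-fold, at log2 -0.92, -0.92 and -0.99. FGG, the fibrinogen gamma chain, had 25 to 64 counts in controls and 22 to 36 at 16 hours (log2 -1.06, limma adjusted p = 0.0295), and its call was lost in 5 of the 16 alternatives. F10, which the tissue factor complex activates, and F7 were lower at 16 hours than at 5 days after LPS (log2 -1.22 and -2.67). LMAN1, a cargo receptor for factors V and VIII, was higher (log2 1.50). In LPS 5d lungs LMAN1 was at 76.3 to 94.3 CPM, below every preterm control (124 to 186 CPM). At 16 hours it was at 172 to 279 CPM, overlapping the controls.

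**Figure D5:**
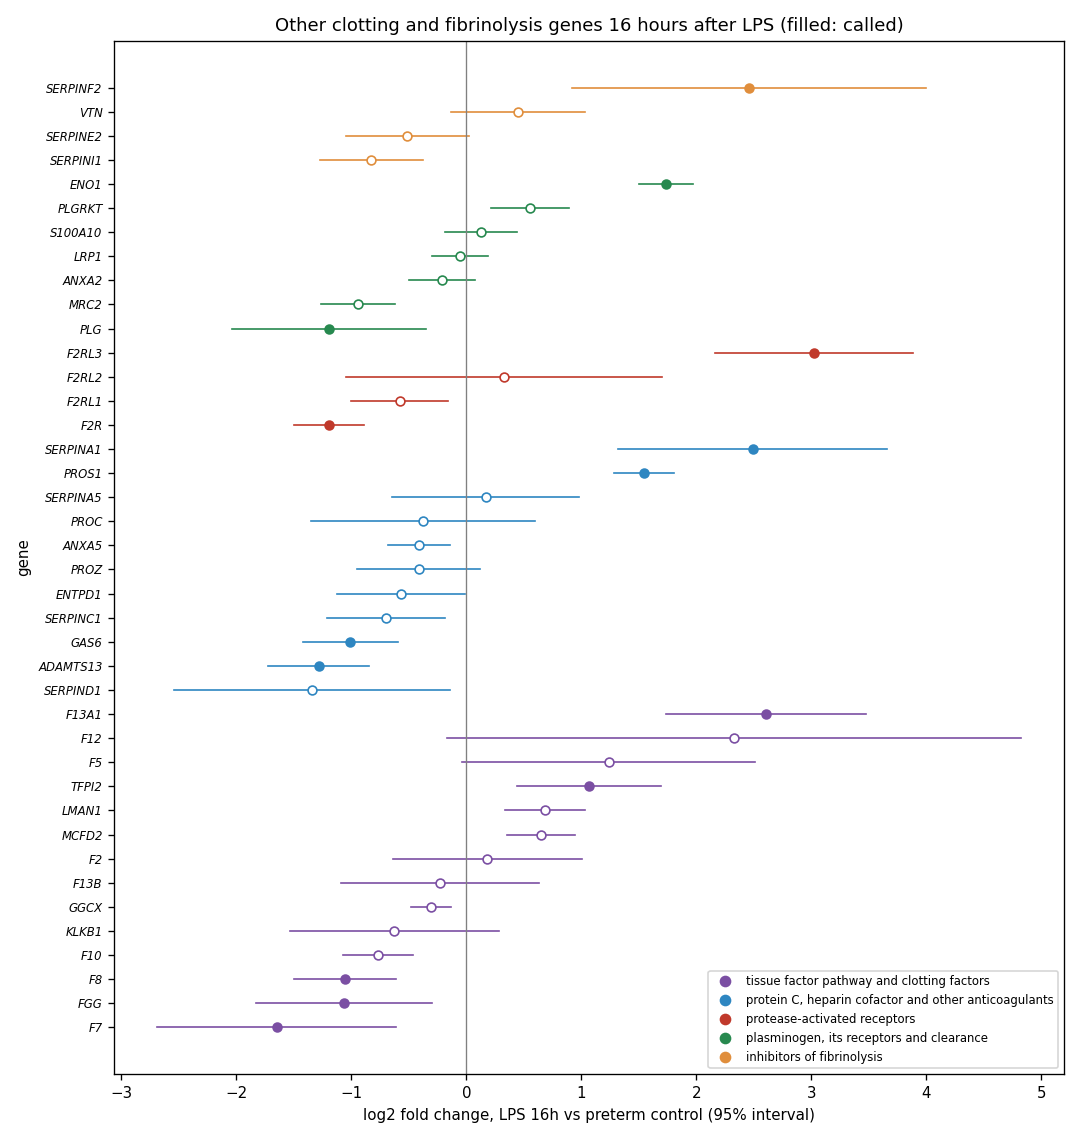
Log2 fold change with 95% interval, LPS 16h against preterm controls, of the 40 tested genes of the wider list, coloured by role, with filled points for called genes. F2RL3 was the highest at 3.02 and F7 the lowest at -1.65, and called genes in both directions occurred among clotting factors, anticoagulants, protease-activated receptors and plasminogen genes.

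Among other anticoagulants, with TFPI2 counted here as well, 3 of 12 were called higher (25%) and 2 lower (16.7%) at 16 hours, beside the same 8.25% and 6.11%. PROS1, protein S, the cofactor of activated protein C, was at 53.8 ± 7.13 CPM in controls and 157 ± 17.1 CPM at 16 hours (log2 1.55, limma adjusted p = 1.19e-07). SERPINA1, an inhibitor of neutrophil elastase, was at 79.3 ± 57.2 and 383 ± 124 CPM (log2 2.49, limma adjusted p = 0.00265). ADAMTS13, the protease that trims von Willebrand factor, was at 39.7 ± 2.52 and 16.8 ± 4.90 CPM, with no overlap (log2 -1.28, limma adjusted p = 0.000178). GAS6, a relative of protein S, was at 176 ± 32.9 and 87.8 ± 20.3 CPM (log2 -1.01), close to the 2-fold limit, and its change was under 2-fold in 8 of the 16 alternatives. SERPINA5, the protein C inhibitor, was called lower at 5 days after LPS, at 1.00 ± 0.865 CPM against 3.76 ± 1.58 CPM (log2 -2.05, limma adjusted p = 0.0042), and was higher at 16 hours than at 5 days. PROC, protein C, had 2 to 17 counts in LPS 16h lungs and 10 to 18 in LPS 5d lungs, and its call as lower was lost in 9 of the 15 alternatives, with a largest limma adjusted p of 0.136.

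Of the 4 protease-activated receptors, which sense thrombin or, in the case of F2RL1, trypsin-like proteases and the tissue factor complex, 1 was called higher and 1 lower at 16 hours. F2R, the main receptor of thrombin on endothelium and fibroblasts, was at 84.8, 84.0, 89.0 and 55.5 CPM in controls and at 37.0, 28.8, 35.1 and 34.4 CPM in LPS 16h lungs. The groups did not overlap (log2 -1.19, limma adjusted p = 1.15e-05). At 5 days the log2 differences were -0.89 after LPS and -0.92 after LPS + Beta-Ac, and in term controls -0.78, past the limit on p in each but under 2-fold. F2RL3, another thrombin receptor, had 3 to 13 counts in controls and 55 to 149 at 16 hours (log2 3.02, limma adjusted p = 3.17e-05).

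Preterm control 209 and term control 200 were set apart from the others in an earlier analysis of these libraries. Without both, 5 genes were called at 16 hours, 1 at 5 days after LPS, 2 after LPS + Beta-Ac and 0 at term, the same counts as with them.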

How the data were processed

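The lung RNA of 16 fetuses was analysed, with 1 library per animal and groups taken from the labels. The 9 genes, the wider lists of pathway genes and of cell type markers, and the tests were chosen with earlier results of these data known. The authors selected poly(A) RNA, sequenced 75 bp paired-end reads, assigned them to the rhesus build Mmul_10 with kallisto, obtained gene totals through tximport and compared groups with DESeq2. The paper names a column kit for the extraction and the labels a phenol reagent. The table the authors deposited gives counts, as whole numbers for each animal and Ensembl gene, neither scaled nor filtered. For tool versions, annotation release and any rounding: not given in the sources used here. Sharing of reads between related genes by the estimation could affect genes with close copies.

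The layout of the table did not allow its values to be recorded as counts in the unit check, so no count model was run and limma took its place. Library sizes were adjusted by a purpose-written TMM function (30% of log ratios and 5% of mean values trimmed). The log2 CPM, with 2 as the prior count, entered limma 3.58.1 under R 4.3.3 with its trend and robust settings and 1 mean per group over all 16 animals. A gene was tested with at least 0.371 CPM in 2 animals and 15 counts in total. All p-values are two-sided and adjusted over the 19199 genes. Fold changes are on the scale with the prior count, which understates those of low genes. Of 22515 genes, 17256 had a symbol in the reference annotation. Pairs of replicates differed by more than counting noise, at a chi-square per degree of freedom of 31.1 to 166. No replicate number is shared between groups. The steps were tested on simulated data.

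Named genes are all 9 members, each pathway gene called in at least 1 of the 6 comparisons, and, for each member, the 3 genes with the highest Pearson correlation. The pathway list covers clotting factors, other anticoagulants, protease-activated receptors, plasminogen and its receptors, and inhibitors of fibrinolysis, and leaves out an item that is not reported here. VKORC1, CPB2 and A2M matched no row, and F9, F11, FGA, FGB, KNG1 and SERPINA10 did not pass the filter. Marker lists were written for endothelium, platelets, neutrophils and monocytes, macrophages, alveolar epithelium, mesenchyme and erythroid cells. Single markers were named after their values were seen. Alternatives were other size factors, no filter, a prior count of 0.5, limma-voom, the 2 groups alone, no minimum fold change, each animal left out, 2 animals left out together and, added after the data were seen, thinning to equal depth.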

Additional observations from a re-analysis of the deposited data

Results flagged for a closer look

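The effect of LPS at 16 hours minus its effect at 5 days equals the direct comparison of those groups, because they share the preterm controls. This difference passed the limits for 6 of the 9 genes in limma, beside 14.6% of all genes, 7.93% higher and 6.66% lower. The log2 differences were 5.04 for SERPINB2 (adjusted p = 3.61e-05), 3.55 for PLAUR (7.59e-09), 2.77 for F3 (8.9e-06), 2.02 for PROCR (2.57e-06), 1.43 for TFPI (5.68e-05) and 1.12 for PLAU (0.0187). All 4 LPS 16h lungs were above all 3 LPS 5d lungs in each of these genes, and the share of all genes without overlap was not counted. Because the genes were picked by their call in this same comparison, their lack of overlap adds no support.

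PLAT in LPS 16h animal 029, at 19.8 CPM, stood apart from the other 3 animals of its group, which lay between 18.7 and 18.8 CPM. The gap was 0.912 of the group's range. The range itself was narrow, with a coefficient of variation of 2.73%, against 22.5% in preterm controls. Chance alone marks about 1 in 20 groups in this way.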

How the results depend on the processing

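The number of the 9 genes called stayed within 1.5 times its reported value in 5 of the 6 comparisons under every alternative. Between term and preterm controls it was 1 with no minimum fold change and ran from 0 to 1 with each animal left out, the gene being PLAUR in both, and in the latter without term control 201. Without that animal the term group is 1 lung, whose spread is assumed to be that of the other groups. Over the 9 genes and 6 comparisons, each result was marked as called or not called. Under the alternatives that keep every group's animals or drop 2 animals together, 430 results kept their mark and 2 gained a call. Most of those that kept it were not called in either fit. With each animal left out, and apart from PLAUR at term as given above, 365 kept their mark, 3 lost a call and 0 reversed. The 3 losses were PLAU between 16 hours and 5 days of LPS.

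Over all genes, the numbers called with no minimum fold change were 7385, 2825, 3324, 770 and 6733 for LPS 16h, LPS 5d, LPS + Beta-Ac and term against preterm controls and LPS 16h against LPS 5d, against 2757, 928, 1246, 397 and 2800 as reported. With only the 2 groups compared, 105 genes were called at term and 0 between LPS + Beta-Ac and LPS alone, where 17 were reported, 2 with limma-voom and 34 without preterm control 209 and term control 200. Without those animals the term count was 241. No paired analysis was possible because the groups share no animal or replicate number. Depth limits SERPINB2 in every group but LPS 16h, and PLG, PROC and FGG throughout.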

Other observations

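Other marker lists were read beside the coagulation genes. Of 12 alveolar epithelial markers, 3 were called higher and 4 lower at 16 hours after LPS, beside 8.25% and 6.11% of all genes. Of 10 mesenchymal markers, 0 were called higher and 2 lower at 16 hours against preterm controls. These counts were 0 and 2 after LPS + Beta-Ac and 0 and 4 at term. Over all genes, 14.4%, 6.49% and 2.07% were called in either direction in these comparisons. Of 7 erythroid markers with a row, 4 were called higher at 16 hours than at 5 days after LPS, beside 7.93% of all genes. At 5 days 1 was called lower than in preterm controls, beside 4.83% of all genes called in either direction.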
